A study of Mus musculus with 20 samples.

Results

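The early-peak gene set holds the protein-coding genes that were higher in colorectal liver metastases collected at 9 dpi (days post injection) than in both normal liver and the tumor-filled metastases of 12 dpi. Its members were chosen by measured values: the mean log2(CPM + 1) of the 2 Lt and 2 Mt3 libraries had to be at least 1 above the mean of the 2 con libraries, at least 1 above the mean of Ht_1 and Ht_2, and at least 2 itself. CPM is counts per 1000000 of a library's total, and genes of chromosomes X and Y were left out. The choice gave 61 of 20915 protein-coding genes, of which 11039 reached the early mean of 2. Of those 11039 genes, 2087 (18.9%) were at least 1 above con, 1469 (13.3%) were at least 1 above Ht, and 61 (0.553%) met both conditions. The rise and the fall are therefore fixed by the selection and are given as description only, with no test.

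The study grew syngeneic MC38 colon carcinoma in the livers of wild-type C57BL/6 mice by injecting 1000000 cells that reached the liver through the portal vein, and sequenced bulk RNA from liver pieces with more and more tumor. The con group (2 libraries, day 0) received normal saline, and L-con (1 library, 12 dpi) was tumor-free tissue remote from the metastasis. The tumor-bearing groups were Lt (low content, 9 dpi, 2 libraries), Mt3 (medium content, 9 dpi, 2), Mt2 and Mt1 (medium content, 11 dpi, 2 each) and Ht (high content, 12 dpi, 3), all in the same WT background. F4/80+ and CD11b+ cells (3 libraries each) were picked with microbeads, by the labels from medium-content tumor of 11 dpi and by the methods from Mt2. The tissue pieces held tumor and liver together, so a level in them mixes MC38 cells, hepatocytes and stromal cells, and fewer cells of a type cannot be told apart from less RNA per cell. The labels give the sex of the tissue donors as male, while the methods of the paper describe female mice. In the tissue libraries Xist had 0 to 3 counts and the Y-linked gene Ddx3y 348 to 1421, and in the sorted-cell libraries Xist had 5547 to 21805 and Ddx3y 0. Tissue and sorted cells therefore differed in sex pattern as well as in kind of sample, and their counts were deposited separately. The contributions of sex, kind of sample and any batch to a difference between them cannot be told apart.

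Liver injury and inflammation make hepatocytes secrete acute-phase proteins. Interleukin-6 and interleukin-1 drive this response through STAT3, NF-kB and C/EBP factors, and serum amyloid A and orosomucoid are among its main products in the mouse. Major urinary proteins are small lipocalins that the mouse liver secretes in large amounts under the control of growth hormone, and Socs2 and Cish are feedback inhibitors that the same hormone induces through STAT5. Kupffer cells, the resident macrophages of the liver sinusoids, carry scavenger receptors such as Marco and the phosphatidylserine receptor Timd4.

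Total counts per library ran from 16032085 to 18246623 in tissue (median 16961026) and from 17785496 to 20548370 in sorted cells (median 18097652). A count of 3 corresponded to 0.146 to 0.187 CPM, and this floor covers counting error only. The methods speak of 2 livers per group, L-con apart, and neither they nor the labels say which animals the sorted cells came from, so the p-values below measure the spread between these libraries. According to the methods, Ht_1 was made identical to Ht_3, and the 2 were summed to 1 sample in the fits. Their counts differed by more than sampling noise, with a chi-square of 30.3 per degree of freedom, against 29.1 for Ht_1 and Ht_2 and 13.2 for Ht_2 and Ht_3.

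A pair of libraries stood apart. In con_1 most major urinary protein members were low: con_2 was at least 1 log2 unit above con_1 in 16 members, 10 of them major urinary protein genes, and con_1 was at least 1 above con_2 in 8. Over all 11039 genes, 2.16% had con libraries at least 1 apart in either direction, against 24 of the 61 members, 13 of which were not major urinary protein genes. Without con_1 the same conditions gave 55 genes, of which 42 were members, and only 4 of the 42 were major urinary protein genes. The 19 members that dropped out without con_1 were Mup1, Mup7, Mup11, Mup12, Mup13, Mup15, Mup17, Arrdc3, Capn8, Cish, Derl3, Dio1, Osgin1, Rarres1, Serpina12, Serpina3n, Slc22a7, Wfdc21 and 2010003K11Rik. Without con_2 the conditions gave 65 genes, 51 of them members, and the 10 that dropped out were Apcs, Cyp26b1, Gbp10, H2-Q1, Hamp2, Mt1, Saa3, Scara5, Slc10a2 and Trf. Mt3_1 was at least 1 below each of the other early libraries in 12 members and in 48 of the 11039 genes, and it was the lowest early library in 36 members. Without Mt3_1 the conditions gave 70 genes, 59 of them members (Dio1 and Osgin1 dropped out), and with neither con_1 nor Mt3_1 68 genes, 46 of them members. All 4 early libraries lay above both con libraries in 40 of 61 members, none of them a major urinary protein gene, against 46% of all genes. All 4 early libraries lay above Ht_1 and Ht_2 in 58 members, against 19.4% of all genes. Both comparisons, with con and with Ht, are of values that the selection used and are description only.

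The median member stood 1.44 above con and 2.34 above Ht on the log2(CPM + 1) scale. Over the 11039 genes those medians were 0.29 and -0.80, so these differences are read against that shift. With TMM scaling the medians of all genes were 0.00 and 0.03 and those of the members 1.19 and 2.84. With the size factors of DESeq2 they were -0.06 and -0.05 for all genes and 1.13 and 2.75 for the members. With TMM scaling 44 members still met the conditions. The 17 that left were Capn8, Chrm3, Cish, Dio1, Gbp10, H2-Q1, Mup1, Orm1, Osgin1, Rarres1, Saa3, Scara5, Serpina3n, Steap4, Timd4, Wfdc21 and 2010003K11Rik. With size factors the same genes and Apcs, Arrdc3, Cd5l, Cyp26b1, Lrg1, Slc10a2 and Trf left, and 37 stayed.

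**Figure D1:**
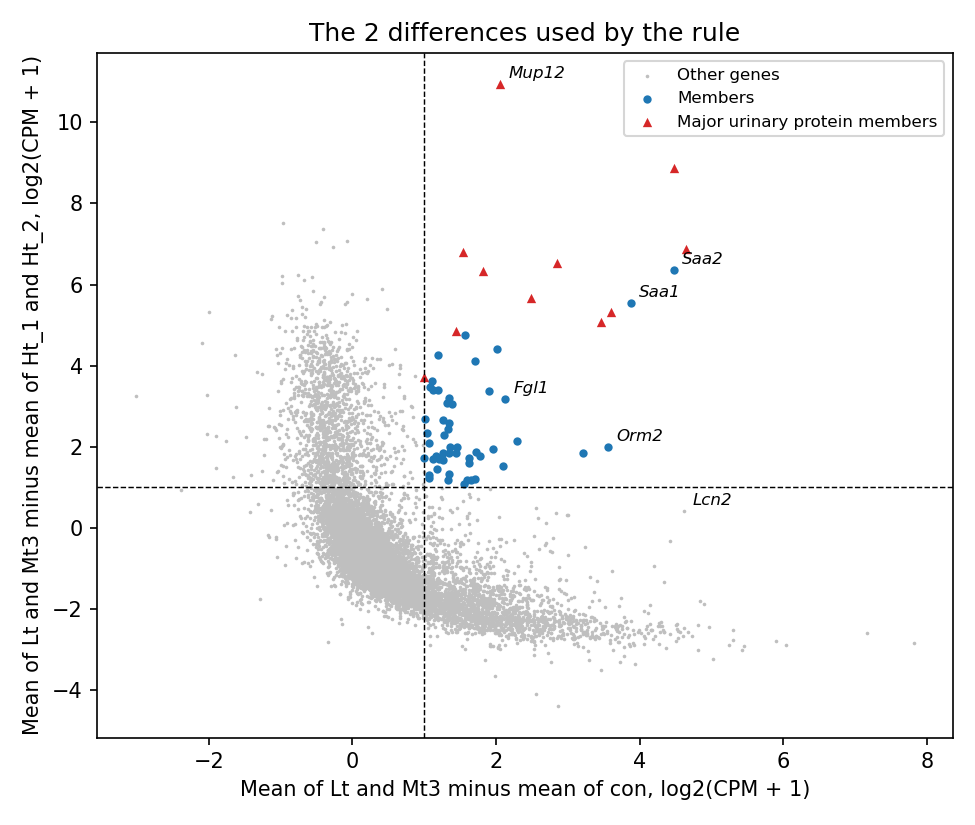
Mean log2(CPM + 1) of Lt and Mt3 minus that of con (horizontal axis) and minus that of Ht_1 and Ht_2 (vertical axis), 1 point per gene with an early mean of at least 2. Grey points are the other genes, blue circles members, red triangles major urinary protein members, and the dashed lines at 1 are the thresholds of the selection. The 61 members fill the upper right corner, where few of the 11039 genes lie.

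A peak in the early metastases described only some of the members once the groups left out of the selection were added. The highest of the 7 tissue group means was in Lt or Mt3 for 25 members (Lt 15, Mt3 10), in L-con for 27, in Mt1 for 8 and in Mt2 for 1. L-con is 1 library, and a single value is more easily the highest than a mean of several. The single highest library was an early one for 32 members, a library of 11 dpi for 16, L-con for 12 and con_2 for 1. The lowest was a Ht library for 51 members and a con library for 10. Of the 61, 48 were lower in Ht than in con, 32 of them by at least 1, and 2 (Orm2 and Prtn3) were higher in Ht by at least 1. No shares over all genes were computed for the counts of this paragraph, so they describe the members only. The set is therefore best described by its rule, as genes above both con and Ht at 9 dpi, and the peak often lay elsewhere.

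L-con, the tumor-free liver of tumor-bearing mice, was as high as the early metastases in many members. It was at least 1 above con in 49 of 61 members, against 4.97% of all 11039 genes. This comparison shares con with the selection and rests on a single L-con library, so it has no replicate check. Without con_1 the count was 40, without con_2 48, and with TMM scaling 49. The median difference from con was 1.55 in the members and 0.06 over all genes, and the median difference between L-con and the early mean was 0.02 in the members. L-con lay above all 4 early libraries in 15 members (12.3% of all genes), within their range in 36 (38.2%) and below all of them in 10 (49.5%), and it was above both con libraries in 51 (44.5%). The 12 members in which it rose by less than 1 were Gm21320, Mup13, Mup1, Trf, Hamp2, Wfdc21, Il1b, Osgin1, Saa3, H2-Q1, Gbp10 and 2010003K11Rik. Hamp2, a paralog of the iron hormone hepcidin, was the only member with L-con below the con mean, at -0.68. Cell cycle, MHC class II and monocyte genes were also higher in L-con than in con, by at least 1 in 19 of 25, 6 of 7 and 7 of 9 genes with an early mean of at least 2, with medians of 1.63, 1.64 and 1.504. Summed CPM was 86.8 and 84.6 in con and 235 in L-con for the 25 cell cycle genes (Pcna the most abundant in the early libraries), 369, 107 and 643 for the 9 MHC class II genes (Cd74), and 491, 439.6 and 522 for the 9 monocyte genes (F10). None of these genes was at 3 counts or fewer in every tissue library, and their part in the rise of the members in L-con was not tested. F10 averaged 146 FPKM in the early libraries, while in sorted cells Ms4a4c was the most abundant of the monocyte genes. The monocyte sum is therefore not read as monocyte content. Against the mean of the day 11 groups, which the selection did not use either, L-con was at least 1 higher in 22 members, 10 of them major urinary protein genes, and 6.17% of all genes passed that difference.

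At 11 dpi the members differed among themselves. The mean of Mt2 and Mt1 was at least 1 above con in 28 members, against 38.1% of all genes, and with TMM scaling in 10, against 20.4%. It was at least 1 below the early mean in 21 members, among them all 11 major urinary protein genes (3.49% of all genes), and above the early mean in 10 (76.1% of all genes). These comparisons share the con or early libraries with the selection, which picked members for low con and high early values. The median difference from the early mean was -0.61 in the members and 0.42 over all genes. Outside the major urinary protein genes it was -0.40. The 2 libraries of each day 11 group differed: Mt2_1 exceeded Mt2_2 in 41 members and Mt1_1 exceeded Mt1_2 in 46. No share over all genes was computed for these counts. Summed hepatocyte markers were higher in the same libraries, at 99650.4 CPM in Mt2_1 against 36256 in Mt2_2 and 99868 in Mt1_1 against 35168 in Mt1_2. Their part in these counts was not tested.

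The summed CPM of 13 hepatocyte markers also fell to Ht. It was 148706 and 131094 CPM in con and 120706 in L-con, then 132925 and 91721 for Lt, 118159 and 96201 for Mt3, 99650.4 and 36256 for Mt2, 99868 and 35168 for Mt1, with 4617, 7523 and 6019 for Ht. Alb was the most abundant of them, at 25586 FPKM (counts scaled by gene length and library total) on average in the early libraries, and none of the 13 was at 3 counts or fewer in every tissue library. No hepatocyte marker was a member: 0 of 13 rose by 1 from con to the early libraries, with a median of -0.50, and 13 of 13 fell by at least 1 from there to Ht, with a median of 4.27. The part of hepatocyte content in the fall of the members was not tested.

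The thresholds were passed by narrow margins in some genes. Just inside the rise from con were Mup1 and 2010003K11Rik (both 1.00), Serpina3n (1.02), Capn8 (1.04) and Gbp10 (1.06), and just outside were Adamdec1 (0.99), Sgsm1 (0.99), Prok1 (0.98), Clec4f (0.89) and Eif4ebp3 (0.88). Just inside the difference from Ht were Ccl24 (1.08), Mustn1 (1.17), Il1b and Serpina3f (both 1.18) and Slc37a1 (1.19). Tgm1 (0.99), Cxcl1 (0.97), Cxcl9 (0.84), Apol9a (0.78) and Ear2 (0.76) were just outside it. The early mean was lowest in Orm3 (2.10), Chrm3 (2.21), Hamp2 (2.28), Syne4 (2.33) and Capn8 (2.46), while Ly6i (1.95), Slc13a5 (1.90), Cfd (1.86), Moxd1 (1.80) and Crybb3 (1.67) missed only that condition.

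**Figure D2:**
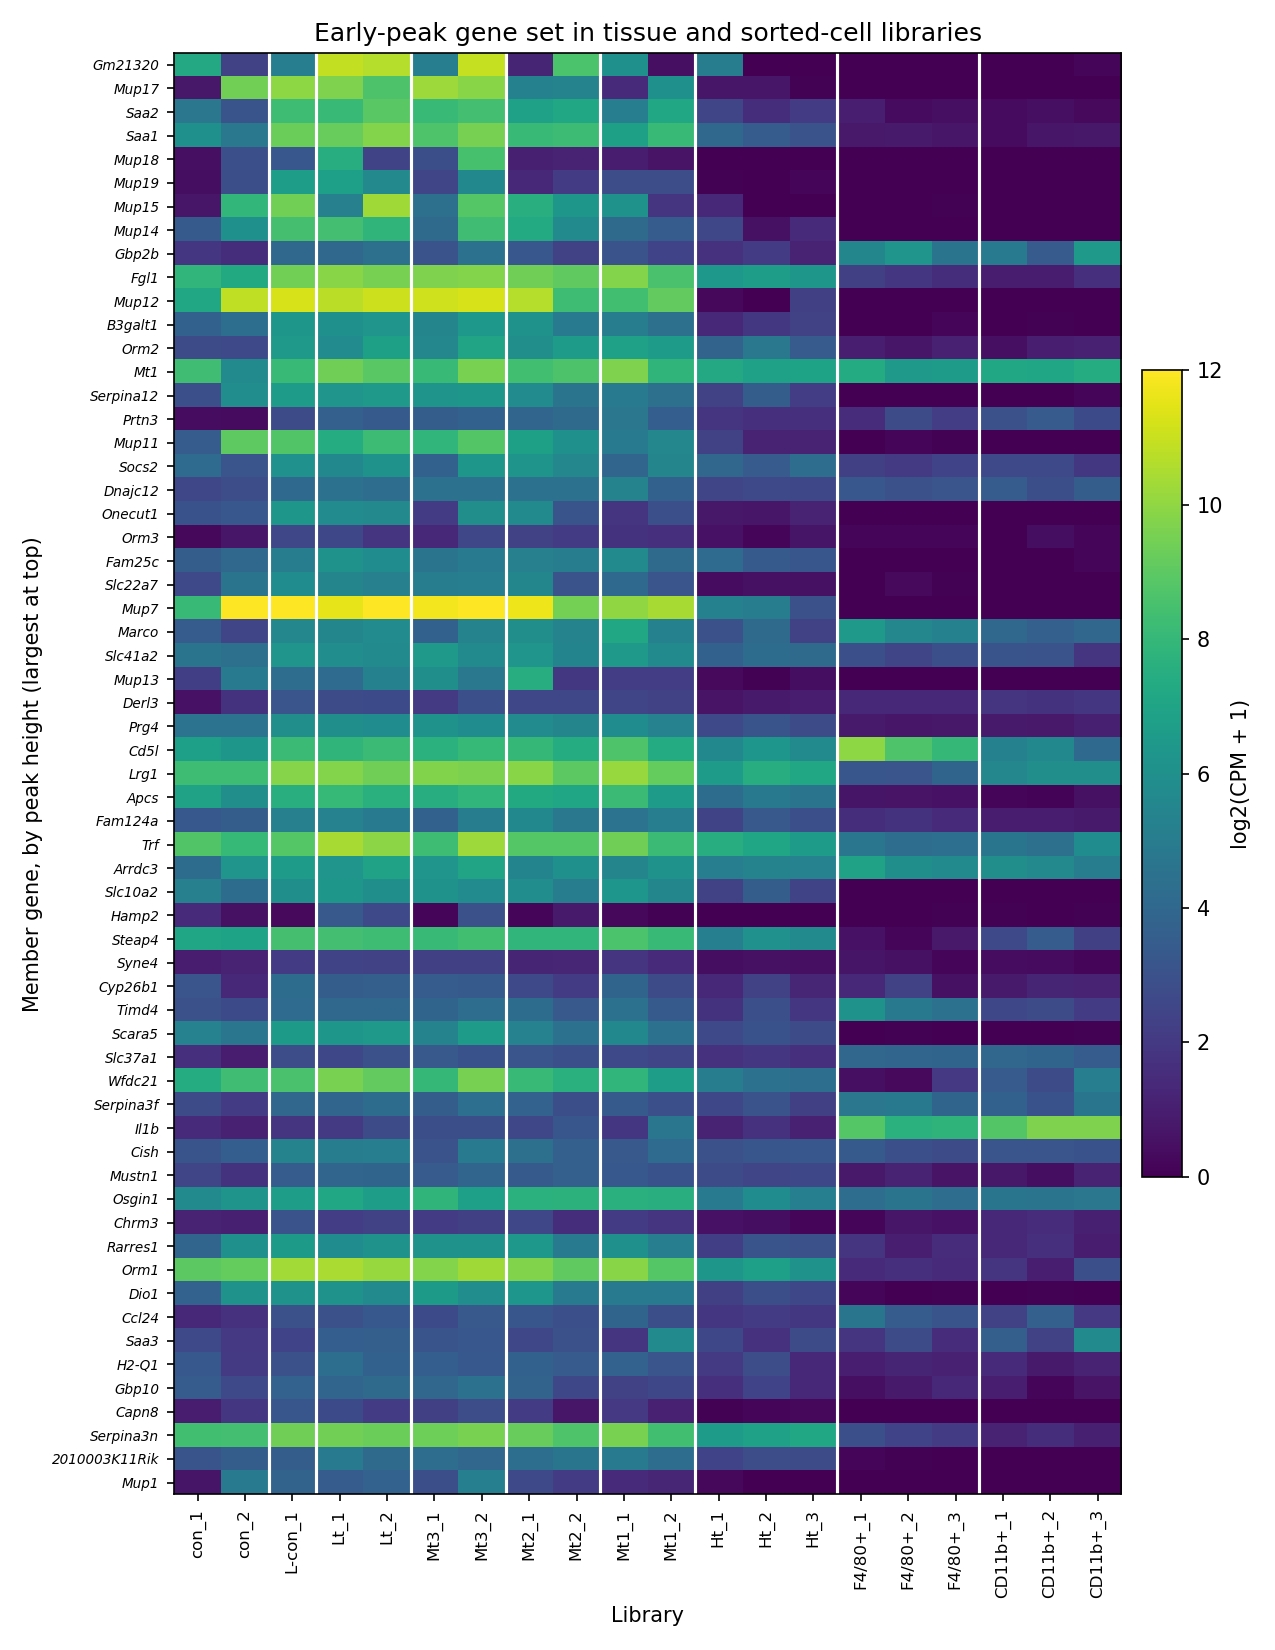
The level of each of the 61 members (rows, ordered by the smaller of its differences from con and Ht) in each of the 20 libraries (columns), as log2(CPM + 1). Values above 12 share the brightest color, and white lines part the groups. The rows of the major urinary protein genes are uneven within groups and dark in every sorted-cell library. Most other rows are brighter from L-con to Mt1 than in con, Ht and the sorted cells.

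Of the 61 members, 11 were major urinary protein genes, among them Gm21320, which codes for a protein of the same family. All 11 lay in 1 stretch of chromosome 4, from 60066469 to 61782269 (GRCm38). The table listed 22 genes of the family, so 11 others were not members. Per length, the 3 most abundant genes of the set in the early libraries were of this family: Mup7 averaged 3912 FPKM, Mup12 2332 and Gm21320 1627. Mup17 averaged 897 FPKM and Mup15 475. Mup7 measured 283 and 6538 CPM in con and 9299 in L-con, then 3014 and 4704 for Lt, 3484 and 4961 for Mt3, 3284 and 718 for Mt2, 1016 and 1379.8 for Mt1, with 37.8, 31.7 and 6.87 for Ht. Its low libraries were con_1 and the Ht libraries, and con_2 exceeded every early library. Mup12 measured 141 and 1854 CPM in con and 2477 in L-con, then 1719 and 2199 for Lt, 2251 and 2467 for Mt3, 1609 and 308 for Mt2, 327 and 550.1 for Mt1, with 0.181, 0 and 3.85 for Ht. Again con_1 was far below con_2, and con_2 lay within the early range. Mup17 measured 0.729 and 689 CPM in con and 1008 in L-con, then 806 and 401 for Lt, 1196 and 922 for Mt3, 37.5 and 40.5 for Mt2, 1.81 and 64.7 for Mt1, with 0.663, 0.658 and 0.0592 for Ht. It was nearly absent from con_1 and high in con_2, L-con and the early libraries.

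Gm21320 had the largest rise, and only Mup18 varied more among the early libraries. Gm21320 measured 150.1 and 3.93 CPM in con and 34.5 in L-con, then 1939 and 1641 for Lt, 33.9 and 1988 for Mt3, 1.34 and 391 for Mt2, 63.7 and 0.422 for Mt1, with 33.2, 0 and 0 for Ht. The 3 libraries Lt_1, Lt_2 and Mt3_2 exceeded all others, while Mt3_1 was below con_1. Mup18 measured 0.425 and 6.69 CPM in con and 8.67 in L-con, then 177 and 4.51 for Lt, 6.35 and 361 for Mt3, 1.11 and 1.29 for Mt2, 0.873 and 0.543 for Mt1, with 0, 0 and 0 for Ht, and only Lt_1 and Mt3_2 were high. Mup15 measured 0.668 and 247 CPM in con and 705 in L-con, then 36.4 and 1242 for Lt, 20.7 and 459 for Mt3, 187 and 80.9 for Mt2, 69.4 and 2.59 for Mt1, with 1.51, 0 and 0 for Ht. It was high in con_2, L-con, Lt_2 and Mt3_2 and low in Lt_1 and Mt3_1. Mup19 measured 0.365 and 6.34 CPM in con and 102 in L-con, then 108 and 49.2 for Lt, 4.61 and 47.3 for Mt3, 1.52 and 3.31 for Mt2, 6.18 and 6.09 for Mt1, with 0.0602, 0 and 0.118 for Ht, with Mt3_1 below con_2. Mup14 measured 9.66 and 63.1 CPM in con and 356 in L-con, then 344 and 233 for Lt, 16.9 and 317 for Mt3, 163 and 50.4 for Mt2, 16.8 and 10.2 for Mt1, with 4.82, 0.438 and 1.66 for Ht. There Mt3_1 was again the low early library, below con_2. Mup11 measured 10.3 and 514 CPM in con and 431 in L-con, then 173 and 298 for Lt, 235 and 437 for Mt3, 110.5 and 64 for Mt2, 28.4 and 46.2 for Mt1, with 3.91, 1.26 and 1.24 for Ht, and con_2 was above every early library. Mup13 reached 175 CPM in Mt2_1, more than in any early library, and Mup1 reached at most 35.04 CPM in any library.

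The family as a whole did not show the rise of its members when both con libraries were used. Over all 22 genes the summed level was 8377 and 20999 CPM in con and 23909 in L-con, then 17188 and 18288 for Lt, 13215 and 20371 for Mt3, 10407 and 4109 for Mt2, 4702 and 4809 for Mt1, with 375, 474 and 279.9 for Ht. Con_2 lay above every early library in this sum, and L-con was the highest library. The early mean of the sum was only 0.36 above con on the log2 scale, with -0.30 relative to con_2 alone and 1.03 relative to con_1 alone, so with both con libraries the family counted as 1 value (0.06 above con with TMM and -0.01 with size factors) would not have met the selection, which then gave 50 genes. The 11 genes outside the set fell on the same scale, by 0.29 from con to the early libraries, and more with the other scalings. In sequence the family members cannot be separated well by reads of ordinary length. Of the 100-base windows in the annotated transcripts of the 11 members, 55.7% (Mup1) to 100% (Gm21320 and Mup19) occurred also in another gene. A read from such a window fits several genes, so the level of a single family member is uncertain. How such reads were counted was not examined, so the sum may be affected as well.

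Of the gene lists searched, that of acute-phase proteins held the most members, 9 of 24 genes: Saa1, Saa2, Saa3, Orm1, Orm2, Orm3, Apcs, Serpina3n and Steap4. With TMM scaling 5 of the 9 stayed in the set and with size factors 4 (Saa1, Saa2, Orm2 and Orm3). Of the 23 genes of the list with an early mean of at least 2, 10 rose by at least 1 and 22 fell by at least 1, with medians of 0.82 and 3.20. Lcn2, the tenth to rise, went up by 4.62 but fell by only 0.40 to Ht. Hamp, which codes for hepcidin, was 0.86 lower in the early libraries than in con (difference -0.86). The summed CPM of the 24 genes was 30505 and 22789 CPM in con and 40617 in L-con, then 47115 and 38709 for Lt, 38934 and 42381 for Mt3, 37121 and 23838 for Mt2, 39987 and 20058 for Mt1, with 3217, 5164 and 3750.4 for Ht. Hpx was the most abundant of them in the early libraries, at 4984 FPKM, and was not a member, since it rose by 0.83.

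Serum amyloid A proteins are apolipoproteins of high-density lipoprotein, released in large amounts during inflammation. Saa1 measured 64.1 and 27.4 CPM in con and 636 in L-con, then 582 and 886 for Lt, 410.3 and 752 for Mt3, 273 and 296 for Mt2, 113 and 273 for Mt1, with 15.7, 10.1 and 7.46 for Ht. Saa2 measured 25.7 and 7.57 CPM in con and 306 in L-con, then 267 and 494 for Lt, 280.2 and 342 for Mt3, 117 and 148 for Mt2, 34.1 and 141 for Mt1, with 4.7, 1.97 and 3.44 for Ht. In both genes every early library exceeded every con, day 11 and Ht library, L-con lay within the early range, and the day 11 libraries lay between the early and the con libraries. The rise was 3.88 for Saa1 and 4.47 for Saa2, the largest among the members outside the major urinary protein genes. The 2 genes shared few 100-base windows with each other (8.96% of those of Saa1 and 8.63% of those of Saa2), and their sum rose by 4.09 (3.79 with TMM, 3.73 with size factors). Saa3, a form also made by macrophages and adipocytes, measured 5.35 and 2.99 CPM in con and 4.37 in L-con, then 11 and 11.4 for Lt, 7.59 and 8.69 for Mt3, 4.85 and 6.95 for Mt2, 2.56 and 50.6 for Mt1, with 5.12, 2.3 and 5.98 for Ht. Its highest library was Mt1_2, and L-con lay between the con libraries. Saa3, Saa1 and Saa2 lay together on chromosome 7, from 46711998 to 46754313.

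Orosomucoids are plasma carrier glycoproteins. Orm1, the most abundant acute-phase member per length at 1522 FPKM, measured 500.2 and 578 CPM in con and 1287 in L-con, then 1431 and 1141 for Lt, 886 and 1260.1 for Mt3, 839 and 530.1 for Mt2, 919 and 463 for Mt1, with 79.7, 109 and 67.4 for Ht. All early libraries and L-con exceeded con, while the day 11 libraries overlapped it. Orm2 measured 5.89 and 5.34 CPM in con and 85.3 in L-con, then 54.6 and 111 for Lt, 45.6 and 126 for Mt3, 60.04 and 96.9 for Mt2, 117 and 94 for Mt1, with 13, 26.6 and 9.77 for Ht. Every tumor-bearing tissue library exceeded con in this gene, Ht included, and the day 11 libraries overlapped the early ones. Orm3, a low-level gene, measured 0.182 and 0.645 CPM in con and 4.91 in L-con, then 5.01 and 2.62 for Lt, 1.63 and 4.97 for Mt3, 4.21 and 3.31 for Mt2, 2.37 and 2.11 for Mt1, with 0.482, 0.164 and 0.592 for Ht, with the early libraries above con and the day 11 libraries within their range. The 3 genes lay within 63344560 to 63365878 of chromosome 4, and 6.95% of the windows of Orm1 and Orm2 were shared between them. Their summed level rose by 1.2 (0.89 with TMM, 0.83 with size factors).

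Serpina3n, an inhibitor of neutrophil and lymphocyte proteases, measured 329 and 342 CPM in con and 681 in L-con, then 689 and 624 for Lt, 658 and 758 for Mt3, 597 and 418 for Mt2, 771 and 328 for Mt1, with 96.2, 117 and 140.3 for Ht. Its early libraries and L-con formed a narrow band above con, and the day 11 libraries spread from the con level to the early one. Steap4, a metalloreductase, measured 133 and 123 CPM in con and 349 in L-con, then 337 and 304 for Lt, 272 and 328 for Mt3, 236 and 236 for Mt2, 381 and 271 for Mt1, with 34.9, 66.4 and 52.5 for Ht. Here the day 11 libraries also stayed above con. Apcs, which codes for serum amyloid P, measured 119 and 59.3 CPM in con and 187 in L-con, then 259.8 and 195 for Lt, 178 and 237 for Mt3, 154 and 131 for Mt2, 288 and 94.8 for Mt1, with 17.9, 28.3 and 23.7 for Ht, with all early libraries above con and the day 11 libraries overlapping both.

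A pair of liver-secreted proteins outside the list behaved much like these. Fgl1, a fibrinogen-like protein, measured 241 and 155 CPM in con and 694 in L-con, then 931 and 749.8 for Lt, 829 and 882 for Mt3, 673 and 544 for Mt2, 868 and 372 for Mt1, with 83.8, 104 and 79.5 for Ht. Lrg1, a leucine-rich glycoprotein of plasma, measured 308 and 308 CPM in con and 898 in L-con, then 867 and 673 for Lt, 834 and 782 for Mt3, 932 and 507 for Mt2, 1136 and 581 for Mt1, with 97.6, 176 and 139.7 for Ht. In both, L-con and all libraries of 9 and 11 dpi exceeded con, and the Ht libraries were the lowest. Wfdc21, a small secreted protein, measured 169.9 and 318 CPM in con and 379 in L-con, then 779.6 and 546 for Lt, 253 and 744 for Mt3, 280.3 and 198 for Mt2, 241 and 104 for Mt1, with 33, 21.8 and 19.2 for Ht, and Mt3_1 lay between the con libraries. Per length Wfdc21 averaged 1338 FPKM in the early libraries, Lrg1 560.5 and Serpina3n 330.4. Trf, the iron carrier transferrin, measured 422 and 259 CPM in con and 455 in L-con, then 1399 and 949 for Lt, 306 and 1198 for Mt3, 451 and 461 for Mt2, 679.5 and 286 for Mt1, with 177, 132 and 94.5 for Ht. Its Mt3_1 value also lay between the con libraries, and 53.2% of its windows were shared with the overlapping gene Gm20425. Serpina12, Serpina3f and Serpina3n lay within 104028769 to 104414329 of chromosome 12.

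Promoter sequence is shown for Saa1 and Saa2, which rose together, for Saa3, which lies beside them but varied differently across the libraries, and for Gbp2b of the interferon list. RefSeq promoter entries (GRCm38.p6) existed for 45 of the 61 members, and the 250 bases before the transcript start were searched on both strands for 3 motifs. The GAS motif TTCNNNGAA, bound by STAT factors, occurred in 5 of the 45 (Apcs, Hamp2, Serpina3f, Steap4 and Syne4) and in 8.13% of 27025 genes with an entry. The C/EBP motif TTGCNNAA occurred in 9 of the 45 (Gbp2b, Orm2, Orm3, Saa1, Saa2, Saa3, Serpina12, Serpina3f and Steap4) and in 10.8% of all genes. The core of the interferon-stimulated response element (TTTC, any pair of bases, TTTC) occurred in 3 of the 45 (Gbp2b, Saa3 and Slc37a1) and in 3.46% of all genes. A match of these letters is a description and no evidence of binding. Members without an entry were Ccl24, Dnajc12, Fgl1, Gbp10, Gm21320, H2-Q1, Mup1, Mup12, Mup13, Orm1, Prg4, Scara5, Slc22a7, Socs2, Trf and Wfdc21. The windows below are chr7:46742981-46743230 (minus strand), chr7:46751583-46751832 (plus strand), chr7:46715677-46715926 (minus strand) and chr3:142594597-142594846 (plus strand), each written 5′ to 3′ and ending at the base before the transcript start. Capitals mark the matches. In Saa1 and Saa2 the capitals are a C/EBP match. In Saa3 they are a response-element core followed by a C/EBP match, both read on the opposite strand, and in Gbp2b the same pair in the same order on the strand written.
Saa1: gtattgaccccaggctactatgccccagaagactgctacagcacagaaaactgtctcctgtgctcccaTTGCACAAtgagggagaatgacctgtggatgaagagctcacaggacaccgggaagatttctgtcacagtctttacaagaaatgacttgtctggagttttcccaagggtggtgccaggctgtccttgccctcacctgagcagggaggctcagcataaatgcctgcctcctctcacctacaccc
Saa2: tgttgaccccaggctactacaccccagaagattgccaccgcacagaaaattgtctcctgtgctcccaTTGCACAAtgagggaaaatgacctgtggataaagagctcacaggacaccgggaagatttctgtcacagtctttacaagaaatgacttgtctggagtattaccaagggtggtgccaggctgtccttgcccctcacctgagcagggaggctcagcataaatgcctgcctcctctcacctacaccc
Saa3: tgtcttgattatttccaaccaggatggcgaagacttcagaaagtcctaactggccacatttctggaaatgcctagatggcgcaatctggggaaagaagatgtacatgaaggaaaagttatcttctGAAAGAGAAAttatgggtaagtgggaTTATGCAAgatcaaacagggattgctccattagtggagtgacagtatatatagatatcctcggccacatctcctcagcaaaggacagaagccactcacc
Gbp2b: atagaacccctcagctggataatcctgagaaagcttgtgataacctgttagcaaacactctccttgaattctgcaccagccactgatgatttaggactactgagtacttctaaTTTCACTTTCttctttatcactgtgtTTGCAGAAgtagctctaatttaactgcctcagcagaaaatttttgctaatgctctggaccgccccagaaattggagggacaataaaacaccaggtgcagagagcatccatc

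The list of interferon-gamma response genes had 2 members, Gbp2b and Gbp10, both guanylate-binding GTPases of cell-autonomous defense, of which Gbp10 left the set with TMM or size factors. Of its 25 genes with an early mean of at least 2, 24 rose by at least 1, only 3 fell by at least 1, and 8 were at least 1 higher in Ht. The median difference of the list from Ht was -0.73. Over all 11039 genes that median was -0.80, and 4561 of them were at least 1 higher in Ht. Gbp2b measured 2.67 and 2.0 CPM in con and 14.9 in L-con, then 15.5 and 20.7 for Lt, 7.47 and 22 for Mt3, 8.71 and 4.04 for Mt2, 7.48 and 4.34 for Mt1, with 2.23, 3.29 and 1.24 for Ht. All early libraries exceeded con and Ht, L-con was within the early range, and the low early library Mt3_1 lay within the range of day 11. Gbp10 measured 10.1 and 5.22 CPM in con and 12.7 in L-con, then 14.2 and 16.7 for Lt, 14.4 and 21 for Mt3, 13.3 and 5.05 for Mt2, 4.12 and 5.0 for Mt1, with 2.05, 4.38 and 1.6 for Ht. Its early libraries were above all others, and its day 11 libraries overlapped con. Of the windows of Gbp10, 73.5% occurred also in Gbp6, Gbp8 or Gm43302, which leaves its own level uncertain. H2-Q1, a nonclassical MHC class I gene, rose by 1.07 from con to the early libraries.

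The Kupffer cell list had 3 members among its 8 genes off chromosome X: Marco, Cd5l and Timd4. With TMM scaling Marco and Cd5l stayed in the set, and with size factors only Marco. Without Ht_1, and with Mt3 alone as the early group, Marco left the set and Cd5l and Timd4 stayed. Cd5l codes for a secreted scavenger protein of macrophages. Of the 8, 4 rose by at least 1 and 7 fell by at least 1. Clec4f, the lectin most restricted to Kupffer cells, missed the rise with 0.89, and Folr2 rose by 1.29 but did not fall. The summed CPM of the 8 genes was 824 and 698 CPM in con and 1405 in L-con, then 1116 and 1289 for Lt, 907 and 1289.6 for Mt3, 1127 and 705 for Mt2, 1623 and 721 for Mt1, with 218, 344 and 243 for Ht. Cd5l was the most abundant of them, at 120.5 FPKM in the early libraries, and none was at 3 counts or fewer in every tissue library. Marco measured 10.1 and 4.75 CPM in con and 45.6 in L-con, then 44.6 and 54 for Lt, 12 and 40.4 for Mt3, 60.6 and 40.2 for Mt2, 146 and 37.7 for Mt1, with 6.87, 16.9 and 4.03 for Ht. Mt1_1 was the highest library, Mt3_1 stood near con, and Ht overlapped con. Cd5l measured 109 and 81.3 CPM in con and 292 in L-con, then 230.4 and 287 for Lt, 200.4 and 263 for Mt3, 249.7 and 171 for Mt2, 414 and 166 for Mt1, with 47.5, 77.7 and 50.4 for Ht. Timd4 measured 6.87 and 5.52 CPM in con and 17.3 in L-con, then 15.1 and 15.4 for Lt, 13.5 and 18.6 for Mt3, 18 and 9.14 for Mt2, 21 and 9.71 for Mt1, with 2.41, 6.69 and 2.78 for Ht. In these 2 genes L-con and all libraries of 9 and 11 dpi exceeded con. The sorted F4/80+ libraries are given below. The general macrophage list, with markers such as Csf1r and C1qa, had no member. In it 10 of 13 rose by at least 1, against 2087 of all 11039 genes. At least 1 higher in Ht were 12 of 13, against 4561 of all 11039.

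Other immune members came 1 to a list. Il1b, the inflammatory cytokine interleukin-1 beta, measured 1.76 and 1.17 CPM in con and 2.63 in L-con, then 3.08 and 5.61 for Lt, 6.46 and 6.32 for Mt3, 4.97 and 8.35 for Mt2, 2.68 and 25.5 for Mt1, with 1.26, 2.3 and 1.13 for Ht, and Mt1_2 was its highest tissue library. Ccl24, a chemokine for eosinophils, measured 1.58 and 2.23 CPM in con and 6.94 in L-con, then 6.93 and 8.84 for Lt, 5.51 and 9.14 for Mt3, 8.13 and 6.56 for Mt2, 13.6 and 6.39 for Mt1, with 2.77, 3.23 and 2.9 for Ht, with L-con and every library of 9 and 11 dpi above con and Ht. Prtn3, a serine protease of neutrophil granules, measured 0.304 and 0.293 CPM in con and 5.68 in L-con, then 11.8 and 9.51 for Lt, 10.7 and 12.1 for Mt3, 14 and 16.5 for Mt2, 26.2 and 10.9 for Mt1, with 2.59, 2.08 and 2.07 for Ht. It was close to the floor in con, kept rising to 11 dpi in the group means and stayed above con in Ht. The neutrophil list had no other member: of its 5 genes with an early mean of at least 2, 3 rose and 3 fell by at least 1, and its most abundant gene was G0s2. The summed CPM of its 20 genes was 36.6 and 62.7 CPM in con and 62.1 in L-con, then 119 and 128 for Lt, 134 and 119.6 for Mt3, 157 and 262 for Mt2, 218 and 448 for Mt1, with 262, 318 and 323 for Ht. Derl3, which acts in the disposal of misfolded proteins and is listed among plasma cell genes, measured 0.486 and 2.35 CPM in con and 7.9 in L-con, then 5.61 and 5.43 for Lt, 3.15 and 6.6 for Mt3, 4.97 and 4.88 for Mt2, 4.74 and 4.16 for Mt1, with 0.542, 0.822 and 0.948 for Ht. Its early libraries were all above con. Serpina3f, a protease inhibitor, rose by 1.60.

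Mt1, here the metallothionein gene and not the tissue group, was the only member in the list of hepatic stress genes and averaged 439 FPKM in the early libraries. It measured 316 and 53.1 CPM in con and 274 in L-con, then 669 and 481 for Lt, 273 and 767 for Mt3, 328 and 405 for Mt2, 829 and 233 for Mt1, with 149, 116 and 122 for Ht. Con_1 lay within the early range and con_2 far below it, so its rise of 1.96 rests on con_2. Of the 14 stress genes with an early mean of at least 2, 5 rose and 3 fell by at least 1. Osgin1, induced by oxidative stress, measured 51.5 and 73.4 CPM in con and 103 in L-con, then 145 and 105 for Lt, 226 and 109 for Mt3, 201 and 209.8 for Mt2, 197 and 189 for Mt1, with 28.9, 55.4 and 34.8 for Ht. Its day 11 libraries were higher than 3 of the 4 early ones. Dnajc12, a cochaperone of aromatic amino acid hydroxylases, measured 4.92 and 6.22 CPM in con and 16.1 in L-con, then 21.5 and 18.7 for Lt, 21 and 21.1 for Mt3, 21.8 and 22 for Mt2, 40.7 and 12.1 for Mt1, with 4.64, 5.26 and 5.15 for Ht, with L-con and all libraries of 9 and 11 dpi above con and Ht.

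Socs2 and Cish, the feedback inhibitors of growth hormone signaling, shared 1 low library. Socs2 measured 17.4 and 7.86 CPM in con and 66.6 in L-con, then 47.5 and 69.9 for Lt, 12.4 and 79.6 for Mt3, 73 and 46.3 for Mt2, 14.1 and 42.9 for Mt1, with 14.4, 9.76 and 18.6 for Ht. Cish measured 7.78 and 10.9 CPM in con and 39.8 in L-con, then 32.2 and 33.6 for Lt, 7.31 and 29.1 for Mt3, 20.7 and 11.8 for Mt2, 9.36 and 17.5 for Mt1, with 6.93, 8.11 and 8.47 for Ht. Onecut1, a transcription factor of hepatocytes, measured 7.23 and 8.57 CPM in con and 81.7 in L-con, then 55.1 and 49.7 for Lt, 3.2 and 59.1 for Mt3, 50.9 and 7.79 for Mt2, 2.56 and 6.69 for Mt1, with 0.723, 0.658 and 1.24 for Ht. In all 3 genes Mt3_1 stood below at least 1 con library and far under the other early libraries, and in Onecut1 Mt2_1 stood with the high libraries and Mt2_2, Mt1_1 and Mt1_2 with con. Without Mt3_1 the 3 genes still met the conditions. Of the windows of Onecut1, 51.7% were shared with the overlapping gene Gm20649.

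Further members code for enzymes, transporters and a serpin. B3galt1, a galactosyltransferase, measured 12.3 and 19.3 CPM in con and 81.1 in L-con, then 65 and 76.6 for Lt, 43.7 and 83.6 for Mt3, 71.1 and 28.4 for Mt2, 32.2 and 20.7 for Mt1, with 1.57, 2.8 and 4.21 for Ht, with every library of 9 and 11 dpi above con. Serpina12, the serpin vaspin, measured 6.62 and 58.5 CPM in con and 95.2 in L-con, then 75.7 and 89.2 for Lt, 72.2 and 79.5 for Mt3, 54.1 and 23.8 for Mt2, 30.8 and 20.3 for Mt1, with 3.98, 10.8 and 3.5 for Ht. All early libraries exceeded con_2, the higher of the con libraries, while the day 11 libraries were between con_1 and con_2. Slc22a7, an organic anion transporter, rose by 1.57 and Slc10a2, a bile acid transporter, by 1.31. Dio1, the deiodinase that activates thyroid hormone, rose by 1.09, but 71.7 CPM in con_2 lay within its early range, and without con_1 the rise was gone. Further transporters were Slc41a2 for magnesium (1.46) and Slc37a1 for glucose 6-phosphate (1.71). The ferritin receptor Scara5 rose by 1.2 and Cyp26b1, which degrades retinoic acid, by 1.26.

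The remaining 11 members outside these groups are named to account for the whole set. They were Arrdc3, an arrestin-domain protein (1.34 above con), the protease Capn8 (1.04), the muscarinic receptor Chrm3 (1.12), Fam124a (1.34), Fam25c (1.62), Hamp2 (1.28), Mustn1 (1.66), the lubricating glycoprotein Prg4 (1.39), Rarres1 (1.12), the nuclear envelope protein Syne4 (1.26) and 2010003K11Rik (1.00). Hamp2 was high in Lt_1, Lt_2 and Mt3_2 only, at 9.13, 5.24 and 6.83 CPM, with 0.112 in Mt3_1. Syne4 and Hamp2 lay on chromosome 7 within 30314807 to 30924681.

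Of the 30 lists searched, 8 held a member and 22 none, and 19 members were in at least 1 list. The counts below are read against all 11039 genes. Of these, 2087 rose by at least 1, 1469 fell by at least 1, and 4561 were at least 1 higher in Ht. The type I interferon list had 28 of 29 genes rising by at least 1 and none falling, and 26 were at least 1 higher in Ht. All 25 cell cycle genes rose and all 25 were higher in Ht by at least 1. Of the MHC class II genes 7 of 7 rose by at least 1, of the class I genes 9 of 16, and none fell by at least 1. The lists of T cells (3 of 4 rose), NK and cytotoxic lymphocytes (4 of 5), dendritic cells (8 of 10), monocytes (8 of 9), immune checkpoints (2 of 2), mesothelium (2 of 2), platelets (1 of 2) and mast cells, basophils and eosinophils (1 of 1) had at most 1 gene that fell by at least 1. In the lists of endothelium 1 of 19 rose and 7 fell, of cholangiocytes and epithelium 2 of 10 and 6, of stellate cells and fibroblasts 7 of 15 and 3, of immediate-early and heat-shock genes 9 of 21 and 1. No gene of the adipocyte (2), exocrine pancreas (1) and erythroid (4) lists rose by at least 1, and no striated muscle gene reached the early mean. All 4 erythroid genes fell by at least 1 to Ht (median 2.02), and no adipocyte or exocrine pancreas gene did. The chemokine list had 15 of 18 genes rising and 2 falling and the cytokine list 6 of 8 and 2, and for B and plasma cells the numbers were 3 of 4 and 1.

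**Figure D3:**
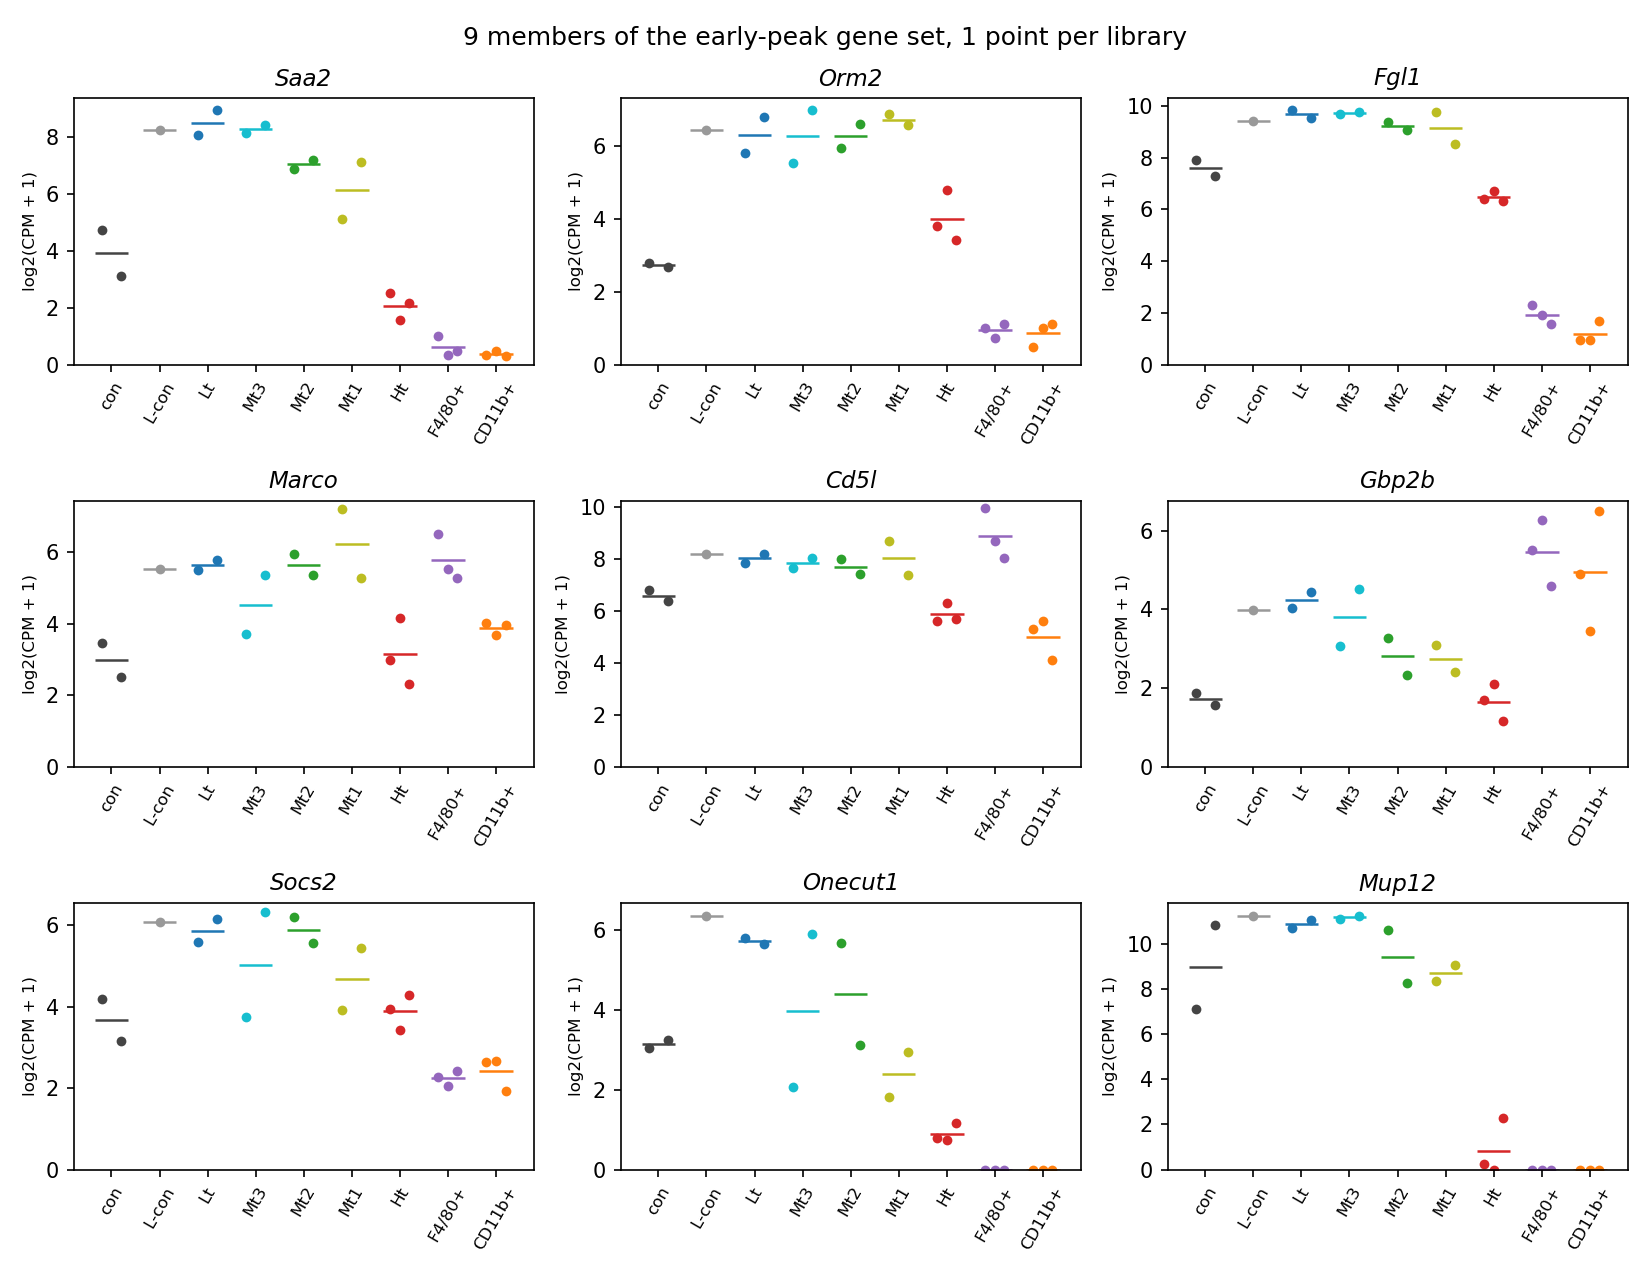
Levels of 9 members as log2(CPM + 1) (vertical axes) by group (horizontal axes), with 1 point per library and a bar at the mean of the group. Saa2, Orm2 and Fgl1 are high from L-con to Mt1, Marco, Cd5l and Gbp2b are also high in F4/80+ cells, and Socs2, Onecut1 and Mup12 show the low libraries Mt3_1 and con_1.

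Whether the members differed between the 2 medium-content groups of 11 dpi was tested on libraries that the selection did not use. By edgeR (quasi-likelihood test, Benjamini-Hochberg adjustment), 0 of 61 members and 0 of 17187 genes (0%) were called from Mt2 to Mt1, called meaning an adjusted p of at most 0.05 and a log2 fold change of at least 1 in size. At an unadjusted p under 0.05 there were 305 genes, and 3 of them were members, all lower in Mt1: Mup13 (log2 fold change -5.04), Mup14 (-3.22) and Onecut1 (-3.06). DESeq2 called 3 genes and 0 members. Without a filter on low counts edgeR called 156 genes, 15 of them members. Mup13 depended on 1 library, since without Mt2_1 its change was 0.49.

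F4/80+ and CD11b+ cells, taken from the same kind of metastasis, were compared directly. Macrophage markers were high in both: the summed level of the 13 genes of that list was 25741, 25857 and 24774 CPM in F4/80+ cells and 23851, 22967 and 30766 in CD11b+ cells. Only 35 of the 61 members passed the filter on low counts. By edgeR's quasi-likelihood test 11 of 14263 genes (0.0771%) were called, and 1 was a member. That gene was Lrg1. It measured 8.16, 8.04 and 13.5 CPM in F4/80+ cells and 46.6, 59.5 and 59.8 in CD11b+ cells, with no overlap. Its log2 fold change from CD11b+ to F4/80+ cells was -2.60 (SE 0.27, adjusted p 0.0284, edgeR quasi-likelihood, Benjamini-Hochberg). It was not called without F4/80+_1, F4/80+_2 or CD11b+_2, where the change stayed between -2.60 and -2.47 and the Benjamini-Hochberg adjusted p of the edgeR quasi-likelihood fit rose to 0.131, 0.194 and 0.0789. Neutrophil markers moved in the same direction: the summed level of the 20 genes of that list was 233, 388 and 1002 CPM in F4/80+ cells and 2543, 1942 and 5567 in CD11b+ cells. In 10 of the 20, and in 6 members, every CD11b+ library was above every F4/80+ library, against 9.79% of all genes in the fit, and in 2 of the 20 and 5 members (12.9% of all genes in the fit) the reverse held. S100a9 was the most abundant of them in the sorted cells, at 814 FPKM, and none was at 3 counts or fewer in every sorted library. Of the 17 dendritic cell genes 9 were also higher in every CD11b+ library and 1 in every F4/80+ library, with sums of 742, 865 and 723 CPM in F4/80+ cells and 905, 785 and 1098 in CD11b+ cells, Irf8 the most abundant. The part of these markers in the difference of Lrg1 was not tested. At an unadjusted p under 0.05 there were 13 members among 1503 genes.

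The Kupffer cell members were higher in every F4/80+ library than in every CD11b+ library but were not called in the main fit. Steap4 and Wfdc21 were higher in every CD11b+ library and were not called either. Their log2 fold changes from CD11b+ to F4/80+ cells were -3.79 (adjusted p 0.058, edgeR quasi-likelihood, Benjamini-Hochberg) and -4.01 (adjusted p 0.25). Cd5l measured 984, 409.5 and 257 CPM in F4/80+ cells and 38.1, 47.9 and 16.3 in CD11b+ cells. Timd4 measured 69.2, 28.1 and 21.9 CPM in F4/80+ cells and 4.99, 5.65 and 3.25 in CD11b+ cells. Marco measured 89.2, 45.4 and 37.8 CPM in F4/80+ cells and 15.2, 11.8 and 14.6 in CD11b+ cells. From CD11b+ to F4/80+ cells the log2 fold changes were 3.97 (SE 0.58) for Cd5l, 3.03 (SE 0.46) for Timd4 and 1.95 (SE 0.35) for Marco. Their Benjamini-Hochberg adjusted p of the edgeR quasi-likelihood fit was 0.058, 0.0615 and 0.0864. DESeq2, and edgeR with no filter on low counts, called all 3 Kupffer cell members. With replicate number as a block edgeR called Cd5l (log2 fold change 3.82) and Timd4 (2.85), and without CD11b+_3 it called Cd5l (3.69). In F4/80+_1 all 3 Kupffer cell members were higher than in the other F4/80+ libraries. Markers of other cells were also higher in every F4/80+ than in every CD11b+ library, in 14 of 19 endothelial, 7 of 13 hepatocyte and 9 of 24 acute-phase genes, and none of these genes was at 3 counts or fewer in every sorted library. Summed endothelial markers measured 4109, 3394 and 3669.7 CPM in F4/80+ cells and 3686, 3726 and 1581 in CD11b+ cells, Stab1 the most abundant, and summed hepatocyte markers 381, 302 and 258 CPM in F4/80+ cells and 123, 115 and 254 in CD11b+ cells, Alb the most abundant. The summed acute-phase genes measured 302, 238 and 277 CPM in F4/80+ cells and 486, 354 and 760.4 in CD11b+ cells, higher in CD11b+ cells, Hp the most abundant. The part of these markers in the differences of the Kupffer cell members was not tested.

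Against the Mt2 tissue libraries most members were lower in the sorted cells. In F4/80+ cells 48 of 61 members were called lower (25.2% of 18407 genes were) and 2 higher (17.2%). In CD11b+ cells 49 were called lower (26.3%) and 2 higher (17.6%). In both populations 45 members were lower and 2 higher, where the shares of all genes can be at most 25.2% and 17.2%. In each population 22 members had at most 3 counts in every library, and 21 had so in all 6, among them all 11 major urinary protein genes. For these genes a fold change is only a lower bound, set by 3 counts per library. Relative to the lower of the 2 Mt2 libraries, Mup7 was at least 4258-fold lower in F4/80+ cells and at least 4321-fold lower in CD11b+ cells. The bounds for F4/80+ cells were 1823-fold for Mup12, 479.7-fold for Mup15 and 299-fold for Mup14. Gm21320 and Mup13 were high in only 1 of the Mt2 libraries. Gm21320 measured 1.34 and 391 CPM in Mt2, which leaves a bound of 7.97-fold in F4/80+ cells, and without Mt2_2 it was not called in either population. Mup13 measured 175 and 2.8 CPM, which leaves 16.6-fold, and without Mt2_1 it was still called in both. Further bounds for F4/80+ cells were 189-fold for Slc10a2, 222-fold for Mup17, 141-fold for Serpina12, 196-fold for Fam25c and 46.2-fold for Onecut1. In CD11b+ cells Slc22a7 was at least 44.5-fold lower and Mup11 at least 385-fold lower.

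The secreted liver proteins Saa1, Fgl1 and Orm1 were above the floor in the cells and lower there by wide margins too. Saa1 measured 0.783, 0.82 and 0.675 CPM in F4/80+ cells and 0.277, 0.681 and 0.716 in CD11b+ cells. Fgl1 measured 3.91, 2.73 and 1.97 CPM in F4/80+ cells and 0.942, 0.925 and 2.2 in CD11b+ cells. Orm1 measured 1.79, 2.13 and 1.74 CPM in F4/80+ cells and 2.66, 1.02 and 6.5 in CD11b+ cells. Each was far below the Mt2 libraries in all 6 sorted libraries. From Mt2 to F4/80+ cells the log2 fold change was -8.59 for Saa1, -7.81 for Fgl1 and -8.62 for Orm1, and to CD11b+ cells it was -8.97, -8.81 and -7.66. The Benjamini-Hochberg adjusted p of the edgeR quasi-likelihood fit was 5.77e-08, 2.42e-07 and 5.61e-07 in F4/80+ cells and 2.51e-08, 1.04e-07 and 8.13e-07 in CD11b+ cells. Saa3 differed from these genes: its log2 fold change was -0.78 in F4/80+ cells and 2.06 in CD11b+ cells, and neither was called.

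The 2 members called higher in both sorted populations were Il1b and Gbp2b. Il1b measured 461, 200.4 and 219 CPM in F4/80+ cells and 446, 807 and 821 in CD11b+ cells, above every tissue library. Its log2 fold change from Mt2 was 5.47 in F4/80+ cells (SE 0.76, adjusted p 2.85e-05, edgeR quasi-likelihood, Benjamini-Hochberg) and 6.77 in CD11b+ cells (SE 0.80, adjusted p 6.15e-06). Gbp2b measured 44.7, 75.7 and 23.3 CPM in F4/80+ cells and 28.7, 10.03 and 89.3 in CD11b+ cells, and the lowest sorted library was still above both Mt2 libraries. Its log2 fold change from Mt2 was 2.77 in F4/80+ cells (SE 0.89, adjusted p 0.0165, edgeR quasi-likelihood, Benjamini-Hochberg) and 2.75 in CD11b+ cells (SE 0.89, adjusted p 0.0165). Without Mt2_2 the change of Gbp2b was 2.19 and 2.15 and neither was called, and without CD11b+_3 it was 1.41 in CD11b+ cells and not called. A fit of only the groups compared did not call it in CD11b+ cells either. The summed level of the 27 immediate-early and heat-shock genes was also higher in sorted cells. It was 3229 and 4877 CPM in Mt2, 23191, 11968 and 14620 in F4/80+ cells and 17639, 17884 and 14540 in CD11b+ cells. Fos was the most abundant of them in the sorted cells, at 1132 FPKM. Their part in the differences of Il1b and Gbp2b was not tested.

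The Kupffer cell genes split by population against Mt2. In F4/80+ cells Cd5l changed by 1.28, Timd4 by 1.41 and Marco by 0.08 on the log2 scale, and none was called. In CD11b+ cells all 3 were called lower, with changes of -2.74 for Cd5l, -1.66 for Timd4 and -1.92 for Marco. Without Mt2_1 the CD11b+ change was -0.71 for Timd4 and -1.24 for Marco, and neither was called. Marco also lost its call without CD11b+_1 (-1.90) or CD11b+_2 (-1.76), and Timd4 without CD11b+_1 (-1.64) or CD11b+_3 (-1.54). With replicate number as a block neither Marco (-1.79) nor Timd4 (-1.31) was called in CD11b+ cells. Serpina3f, Slc37a1, Ccl24 and Arrdc3 were present at 3.03 CPM or more in all sorted libraries and were not called in either population. The metallothionein gene Mt1 measured 163, 87.1 and 96.3 CPM in F4/80+ cells and 145, 136 and 169.7 in CD11b+ cells, below both Mt2 libraries.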

How the data were processed

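The authors deposited gene counts for 14 tissue and 6 sorted-cell libraries; the processing notes name CASAVA, HISAT2 2.0.5, featureCounts 1.5.0-p3 and GRCm38 (mm10). CPM (pseudocount 1), FPKM per deposited gene length and window and motif searches were computed from them. Tests used R 4.3.3 and edgeR 4.0.16 (TMM, filterByExpr, quasi-likelihood F test, Benjamini-Hochberg adjustment over all genes tested), with Ht_1 and Ht_3 summed, the 7 tissue groups, the 6 sorted libraries or all 9 groups in 1 fit. DESeq2 1.42.0, other filters, scalings and thresholds, single replicates left out and a replicate block were the alternatives. The test code was tested on simulated data. Named genes were the 20 members with the largest smaller difference from con and Ht and an early mean of at least 3, the 10 with the highest FPKM, 5 on each side of every threshold, list members where a list is described, the 10 largest called changes per test and direction, and members with near-identical copies; other members are named to account for the set or were singled out after their values were seen. The members and lists were chosen with earlier results of these data known.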

Additional observations from a re-analysis of the deposited data

Results flagged for a closer look

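Among the 4 early libraries, 7 of 61 members had 1 library whose distance from the nearest of the other 3 was large relative to their whole range, on the log2(CPM + 1) scale. In 5 of them it was Mt3_1, and it was low: Cish (3.05, against 4.91 to 5.11 in the others), Gm21320 (5.13, against 10.68 to 10.96), Mup14 (4.16, against 7.87 to 8.43), Mustn1 (3.47, against 3.86 to 3.93) and Onecut1 (2.07, against 5.66 to 5.91). In Dnajc12 Lt_2 was low (4.30, against 4.46 to 4.49) and in Rarres1 Lt_1 (5.85, against 6.14 to 6.18). The share of such genes among all genes was not computed. The members were selected on these same 4 libraries and share them, so the count is a description and is not set against chance. The cause was not tested. Lrg1 stood out among the sorted cells: its level differed between F4/80+ and CD11b+ cells by -2.60 on the log2 scale, tested directly by edgeR in a fit of the sorted libraries alone.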

How the results depend on the processing

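The set held 61 genes as defined and 53 to 70 under other scalings, pseudocounts of 0.5 or 2, minimum means, choices of Ht and early libraries and omission of single libraries (55 to 70), but 25 with a fold threshold of 1.5. With TMM 44 members were shared and with size factors 37. Without con replicate 1 the smaller of the differences from con and Ht turned negative in 5 members: Dio1 (-0.12, and 2.30 without con replicate 2), Mup1 (-1.14 and 3.15), Mup11 (-0.93 and 4.58), Mup15 (-0.76 and 6.46) and Mup7 (-0.72 and 3.80). Of the recomputed differences, 932 moved by less than 1 SD of the early libraries and 100 by more. Members at least 1 above con at 11 dpi numbered 10 with TMM, against 28. From Mt2 to Mt1, 15 members (156 of 29359 genes) were called with no filter on low counts, against 0 (0 of 17187). The log2 fold change of Mup13 in this comparison reversed to 0.49 without Mt2 replicate 1 and was -6.03 without Mt2 replicate 2. From CD11b+ to F4/80+ cells DESeq2 called 7 members (300 of 14263 genes) and edgeR without a filter 7 (242 of 25772), against 1 (11 of 14263). With single replicates left out the count ran from 0 to 3 members (0 to 136 over all genes). A minimum of 10 counts in every library left 17 members called from Mt2 to F4/80+ cells and 19 to CD11b+ cells, since fewer members were tested (25). Of all 10777 genes tested there, 3742 and 3870 were called. Otherwise the cause was not tested.

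With replicate number as a block, 4 members (78 of 14263 genes) were called from CD11b+ to F4/80+ cells, among them Cd5l and Timd4. From Mt2 to F4/80+ cells 51 members (7598 of 18407 genes) were called and from Mt2 to CD11b+ cells 45 (7742 of 18407). From Mt2 to Mt1 the block gave 0 members (0 of 17187 genes). Among the genes no longer called from Mt2 to CD11b+ cells were Gbp2b, Marco and Timd4. Same-numbered libraries correlated at 0.56 in their deviations for Mt2 and Mt1, with only 2 pairs, whose hepatocyte marker sums were also alike by number (99650.4 and 99868 CPM, 36256 and 35168), and at -0.07, -0.12 and 0.01 for the sorted cells. The labels name nothing that a number marks. Omitting con_1 and Mt3_1 together, summing the major urinary protein genes and all alternatives for L-con and 11 dpi were chosen after the data were seen. Where 1 library of a group was left, it is assumed to vary like the other groups. At 3 counts or fewer per library, falls in sorted cells are bounds only.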
